A study of Mus musculus with 6 samples.

Results

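The 32 genes described here encode enzymes of cholesterol and fatty acid synthesis and the proteins that control them, and they were read in sorted Mvt1 cells. They were taken by name from the annotations of the deposited reads, 16 as sterol synthesis enzymes, 6 as regulators or sterol carriers and 10 as fatty acid genes, out of 14761 gene annotations. All 32 passed the filter on low counts, which left 11125 genes. Mvt1, a line of mouse mammary carcinoma cells on the FVB/N background, is labelled as mammary epithelial cancer cells, and it was sorted by flow cytometry into cells without (CD24-) and with (CD24+) CD24 on their surface. RNA came from 3 culture plates of each group, with no treatment named, and polyadenylated RNA was sequenced, so 6 libraries enter every comparison. Separate sorts are not described, so every p-value and SD measures the spread between plates of 1 cell line.

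Cholesterol is built from acetyl-CoA through mevalonate, squalene and lanosterol, and the transcription factor SREBP-2, encoded by Srebf2, is known to drive most of these genes when cell sterol is low. SREBP-1, encoded by Srebf1, leans toward fatty acid genes, whose products make palmitate, lengthen it and insert double bonds. Both factors are held in the endoplasmic reticulum by Insig proteins through the escort protein Scap until sterol falls, and a faster supply of lipid is a known trait of many carcinoma cells.

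The libraries held 6491829 to 19100833 reads annotated to genes, and the shallowest was CD24+ replicate 1. Levels are given as CPM, the reads of a gene per 1000000 gene reads after edgeR's TMM scaling. Cd24a, the gene of the sorted marker, had 12.1, 11.5 and 6.99 CPM in CD24- replicates 1, 2 and 3 and 73.4, 85.6 and 72.5 CPM in CD24+ replicates 1, 2 and 3. Its log2 fold change, always CD24+ minus CD24-, was 2.91 (SE 0.17, edgeR adjusted p = 5.39e-07). Of the 4 luminal keratin genes, Krt8, Krt18 and Krt19 had reads in each library and Krt7 had 10 reads in all, and the 4 had a summed level of 1846 to 2064 reads per 1000000 gene reads (RPM, without TMM scaling) in CD24- and 756 to 884 in CD24+. The 3 basal epithelial genes (Krt5, Krt14, Trp63) summed to 0 to 0.288 RPM in CD24- and 1.01 to 1.57 RPM in CD24+. Adipocyte genes, whose cells are rich in these enzymes, summed to at most 0.282 RPM in a library and milk protein genes had 0 reads. Of the leukocyte genes, Cd68 had 64.6 ± 18.4 CPM in CD24- and 8.16 ± 1.25 in CD24+ (SD, n = 3 each), while Ptprc had 2 reads in all libraries together and Cd3e had 0. Fibroblast genes summed to 4.17 to 8.63 RPM in CD24- and 10.17 to 14.97 in CD24+, and Lum had 0 reads. Endothelial genes summed to 1.69 to 2.59 RPM in CD24- and 0.157 to 0.770 in CD24+. The part of these marker differences in the results was not tested.

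At the threshold, 19 of the 32 genes rose in CD24+ cells and 6 fell, at an adjusted p below 0.05 (edgeR quasi-likelihood test, Benjamini-Hochberg adjustment over all 11125 genes), and 7 were not called. That is 78.1% called, where 46.1% of all genes tested were called, 23.8% as higher and 22.3% as lower. The CD24+ values lay outside the CD24- values for 24 of the 32 genes, beside 57.3% of all genes. In bulk RNA, a larger share of cells that express a gene and more RNA per cell cannot be told apart. Most of the changes were small. Only Fads1, Fads2 and Stard4 were called with a fitted difference of at least 2-fold, 3 of 32 beside 14.4% of all genes, and the median size of the log2 fold change, whatever its sign, was 0.50 for the 32 genes and 0.29 for all genes.

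**Figure D1:**
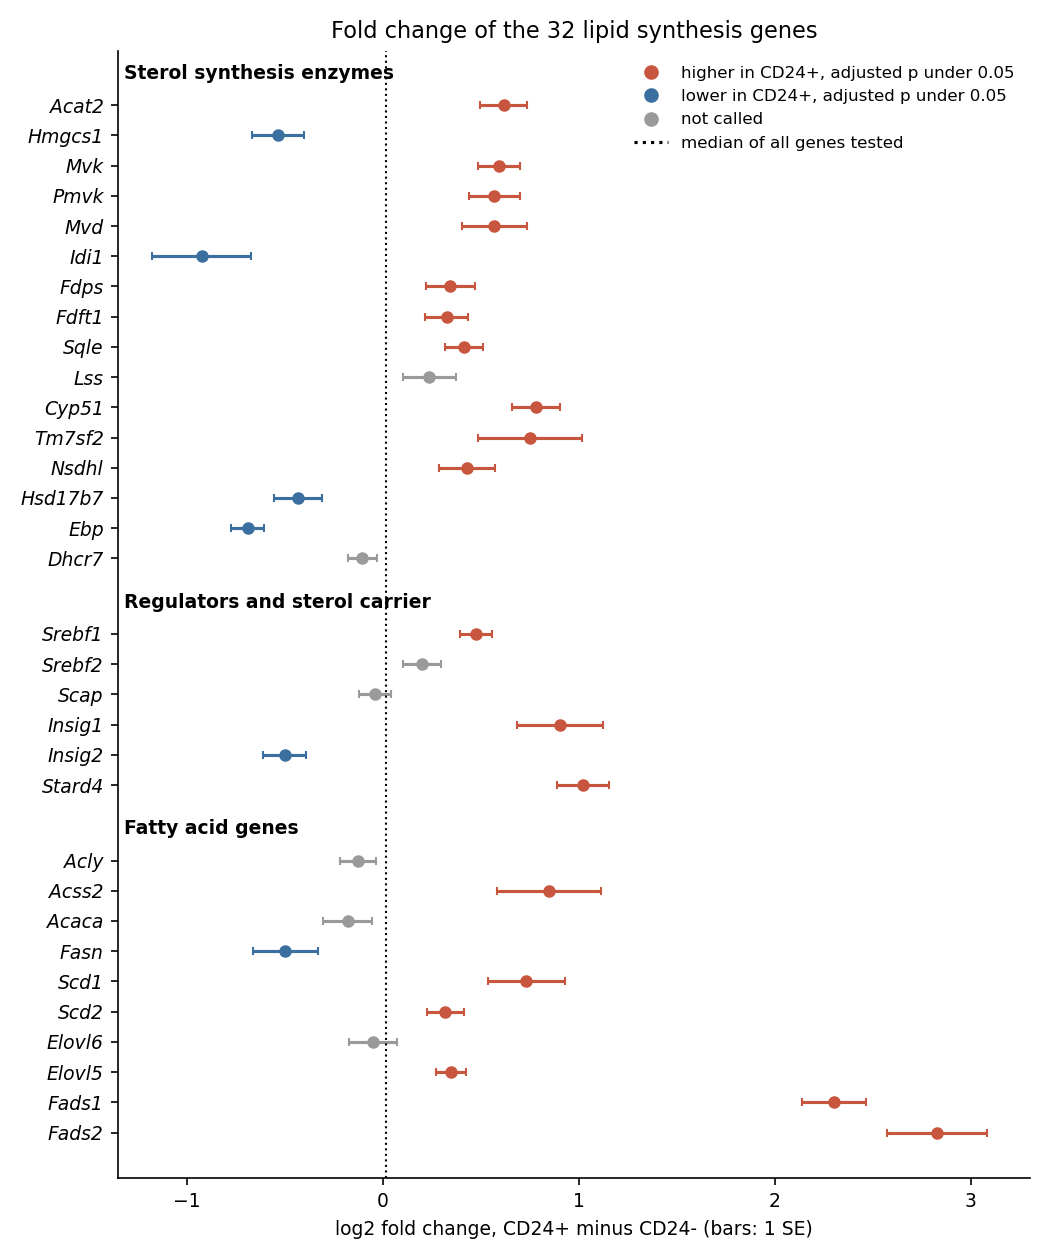
Log2 fold change (CD24+ minus CD24-, x axis) of each of the 32 genes in pathway order within its group, with bars of 1 SE from edgeR (3 libraries a group) and colours for the call. Fads1 and Fads2 lie far to the right at 2.30 and 2.83, while sterol enzymes spread between -0.93 and 0.78, and the dotted line marks the median of all genes tested, 0.02.

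The data unit is a 47-nt read with its count in each library, and the most frequent coding reads of the pair with the largest changes and of Fasn are shown with their positions in mm9, because they are the measurement itself. Each is printed 5′ to 3′ as deposited, and each runs antisense to its messenger RNA, which an unstranded library allows.
Fads1, chr19:10269023-10269069, minus strand: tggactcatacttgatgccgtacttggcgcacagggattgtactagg
Fads2, chr19:10163399-10163445, plus strand: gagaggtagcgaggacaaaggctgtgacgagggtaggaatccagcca
Fasn, chr11:120673200-120673246, plus strand: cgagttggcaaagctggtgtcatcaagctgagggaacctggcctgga
The Fads1 read had 2, 3 and 1 copies in CD24- replicates 1, 2 and 3 and 9, 11 and 21 copies in CD24+ replicates 1, 2 and 3. For Fads2 the copies were 2, 1 and 0 in CD24- and 7, 12 and 13 in CD24+. The Fasn read had 27, 14 and 12 copies in CD24- and 1, 24 and 15 in CD24+. Copies of a single sequence carry a large counting error, and the gene values below sum over all reads of a gene.

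The fatty acid genes held the largest changes of the 32. Of the 10 genes, 6 were higher, 1 was lower and 3 were not called, with a median log2 fold change of 0.33 beside 0.02 over all genes, and 7 had values that did not overlap between the groups. The share called was 70% beside 46.1% of all genes, and 57.3% of all genes did not overlap. The steps differed. The 4 desaturase genes were higher, though those of Scd1 and Scd2 depended on the processing, Fasn was lower, and the genes that supply and carboxylate acetyl-CoA were mixed or not called.

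Fads2 encodes the enzyme that inserts the first of the new double bonds of polyunsaturated fatty acids, and Fads1 the desaturase that acts later in the same route. Fads2 had 13.8, 15.2 and 5.53 CPM in CD24- replicates 1, 2 and 3 and 81.4, 73.3 and 92.9 CPM in CD24+ replicates 1, 2 and 3. Every CD24+ library was thus well above every CD24- library, a 7.18-fold difference of means with a log2 fold change of 2.83 (SE 0.26, edgeR adjusted p = 1.08e-05). Fads1 had 43.7, 43.9 and 27.6 CPM in CD24- and 188, 168 and 214 CPM in CD24+, a 4.94-fold difference of means with a log2 fold change of 2.30 (SE 0.17, adjusted p = 2.2e-06). CD24- replicate 3 was the lowest library for both genes. On the median coverage of each gene, to which 10 is added before the log2, the log2 fold changes were smaller, at 1.59 for Fads2 and 1.36 for Fads1 (limma adjusted p = 5.25e-06 and 4.93e-06). Leaving out each library in turn gave log2 fold changes of 2.51 to 3.08 for Fads2 and 2.12 to 2.41 for Fads1. A further 4452 reads that match Fads2 transcripts carried no annotation, and with every read that matches 1 gene of GENCODE M21 the log2 fold change of Fads2 was 2.84.

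The pair lies on chromosome 19 of GRCm38, Fads2 from 10062765 to 10101503 and Fads1 from 10182877 to 10196874. Their tested neighbours, looked at after the values of the pair had been seen, had smaller fitted changes. Best1 and Rab3il1, with 21 and 11 annotated reads, were not tested. For Tmem258 and Myrf no annotation was found under the symbol or an accepted synonym, so their levels are not known here. Fads3, the nearest gene beside Fads2 and a relative of both, had 141 ± 32.5 CPM in CD24- and 187 ± 33.3 CPM in CD24+ (SD, n = 3 each), and its log2 fold change of 0.41 was not called (edgeR adjusted p = 0.0688). Fen1, next to Fads1, had a log2 fold change of -0.13 that was not called (adjusted p = 0.395). Farther out, Fth1, a ferritin chain gene, was higher (0.82, adjusted p = 2.46e-05) and Dagla, a diacylglycerol lipase gene, was lower (-1.07, adjusted p = 7.06e-06).

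Scd1 and Scd2 encode stearoyl-CoA desaturases, which make monounsaturated fatty acids. Scd1 had 371, 357 and 208 CPM in CD24- replicates 1, 2 and 3 and 504, 443 and 608 CPM in CD24+ replicates 1, 2 and 3, so the groups did not overlap and CD24- replicate 3 was again the lowest. The log2 fold change was 0.73 (SE 0.20, edgeR adjusted p = 0.0118), and it was 0.59 and not called without CD24+ replicate 3 (adjusted p = 0.0567) and 0.42 and not called with each distinct sequence counted once (0.0756). Scd2 was the most abundant of the 32, with 1749 ± 92.1 CPM in CD24- and 2181 ± 226 CPM in CD24+ (SD, n = 3 each) and a log2 fold change of 0.32 (adjusted p = 0.0205). The call of Scd2 was lost when any of 3 libraries was left out, with 0.32 without CD24- replicate 2 (adjusted p = 0.0698), 0.28 without CD24- replicate 3 (0.0533) and 0.22 without CD24+ replicate 3 (0.0979). Scd2 was also not called with median coverage (0.20, limma adjusted p = 0.265) or with the replicate number as a block (0.32, edgeR adjusted p = 0.0502). With each distinct sequence counted once it was -0.014 (adjusted p = 0.956). That count saturates in abundant genes, and Scd2 had 12598 to 46303 reads a library on 5171 read positions unique to the gene. The value of -0.014 therefore cannot decide whether Scd2 differed.

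Acss2 makes acetyl-CoA from acetate, Acly makes it from citrate, Acaca turns it into malonyl-CoA and Fasn, fatty acid synthase, builds palmitate from these. Acss2 had 12.4, 12.9 and 6.54 CPM in CD24- and 15.9, 15.3 and 25.6 CPM in CD24+, with no overlap and a log2 fold change of 0.85 (SE 0.27, edgeR adjusted p = 0.0246). It was 0.53 and not called without CD24+ replicate 3 (adjusted p = 0.139), and 0.14 and not called with median coverage (limma adjusted p = 0.198). Fasn had 668, 665 and 848 CPM in CD24- and 387, 639 and 515 CPM in CD24+. Its groups did not overlap, but CD24+ replicate 2 came close to the CD24- libraries. The log2 fold change of Fasn was -0.50 (SE 0.17, adjusted p = 0.0318), and it was not called without CD24- replicate 3 (-0.37, adjusted p = 0.0895), without CD24+ replicate 1 (-0.34, 0.0768) or without CD24+ replicate 3 (-0.51, 0.0762). Acly (-0.13, adjusted p = 0.285) and Acaca (-0.18, 0.255) were not called. Of the Acaca reads 49.1% also match other annotated genes, mostly Gm5182, so its value is uncertain. On reads that match 1 gene Acaca was not called either (-0.20, adjusted p = 0.182).

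The elongases lengthen fatty acids, Elovl6 those of palmitate length and Elovl5 polyunsaturated ones. Elovl5 had 133 ± 3.58 CPM in CD24- and 169 ± 9.78 CPM in CD24+ (SD, n = 3 each), and its log2 fold change was 0.35 (SE 0.08, edgeR adjusted p = 0.00429), but 0.23 and not called with distinct sequences (0.066). Elovl6 had 194 ± 15.9 and 187 ± 32.1 CPM, a difference smaller than its spread (log2 fold change -0.05, adjusted p = 0.765).

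**Figure D2:**
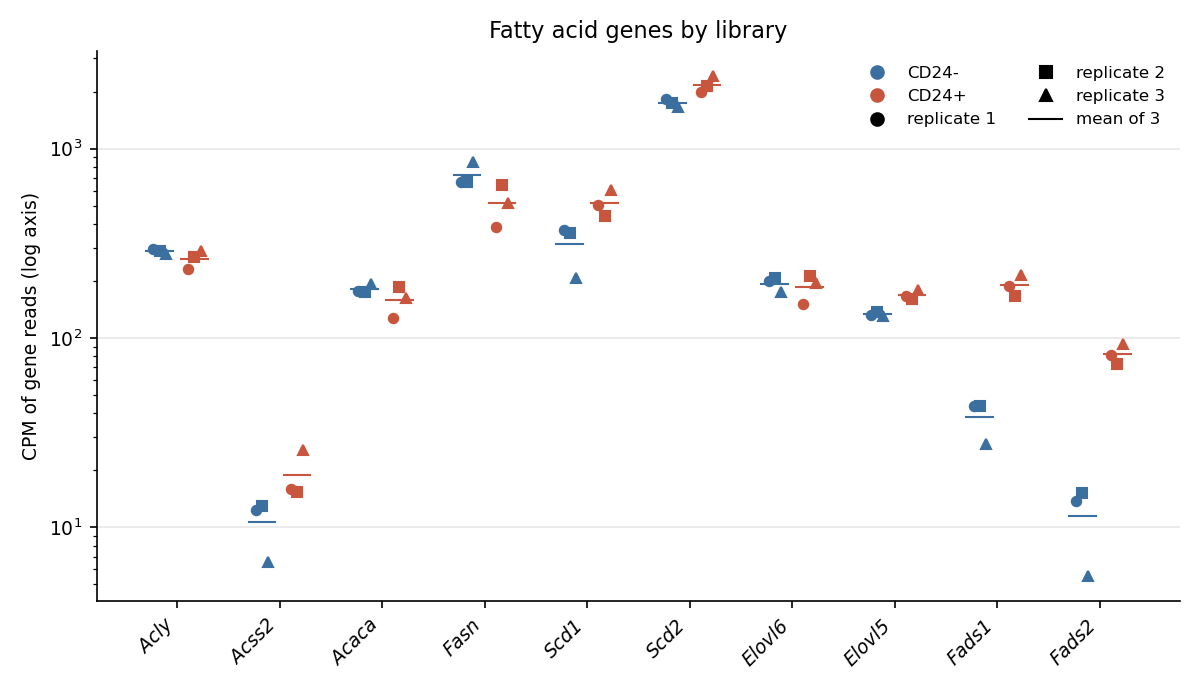
CPM of gene reads (y axis, log scale) of the 10 fatty acid genes in each library, with marker shapes for replicates, colours for groups and a line at each mean of 3. Fads1 and Fads2 separate the groups by the widest gaps, Scd2 sits highest at 1656 to 2427 CPM, and the Fasn points of CD24+ lie below those of CD24-.

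The sterol enzymes showed many small changes in both directions. Of the 16 genes, 10 were higher, 4 were lower and 2 were not called, with a median log2 fold change of 0.38 beside 0.02 over all genes, and 13 had values that did not overlap. The share called was 87.5% beside 46.1% of all genes, of which 57.3% did not overlap, and the median was 0.24 without CD24+ replicate 3. None of the 14 calls had a fitted difference of at least 2-fold. Among the 7 genes from acetoacetyl-CoA to farnesyl diphosphate, 5 were higher and 2 lower. Among the 9 genes from squalene synthase onward, 5 were higher, 2 were lower and 2 were not called.

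In the mevalonate steps, Acat2, which joins a pair of acetyl-CoA molecules, had a log2 fold change of 0.62 (SE 0.12, edgeR adjusted p = 0.00198), but -0.031 with median coverage (limma adjusted p = 0.678). Mvk and Pmvk, which phosphorylate mevalonate in turn, had 0.59 and 0.57, and Mvd, which then removes a carboxyl group, also had 0.57. Mvd was not called without CD24- replicate 1 (0.52, adjusted p = 0.0642) or CD24+ replicate 3 (0.35, 0.106). Hmgcs1, which makes HMG-CoA, the precursor of mevalonate, went the other way. It had 110, 99.4 and 98.4 CPM in CD24- and 61.5, 62.0 and 87.2 CPM in CD24+, so all CD24+ libraries were lower, with a log2 fold change of -0.54 (SE 0.13, adjusted p = 0.00758). Of the Hmgcs1 reads 18.0% also match Gm48342, and on reads that match 1 gene the value was -0.56.

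Idi1, the isomerase of isopentenyl diphosphate, was lower as well. It had 3.16, 2.94 and 3.38 CPM in CD24- replicates 1, 2 and 3 and 1.10, 1.86 and 1.73 CPM in CD24+ replicates 1, 2 and 3, without overlap, and a log2 fold change of -0.93 (SE 0.25, edgeR adjusted p = 0.0125). These values rest on 164 annotated reads, while 5500 other reads that match its transcripts carried another annotation or none. On all reads that match Idi1 alone the log2 fold change was -0.90 (adjusted p = 1.77e-05). Fdps, farnesyl diphosphate synthase, was called higher at 0.34 (adjusted p = 0.0426), but its groups overlapped and 88.0% of its reads also match other annotated genes, mostly Gm43738 and Gm3571. On reads that match 1 gene Fdps was not called (0.30, adjusted p = 0.195), and it lost its call when any library but CD24+ replicate 2 was left out (adjusted p of 0.0669 to 0.204).

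From squalene onward, Fdft1 joins farnesyl diphosphate into squalene, Sqle epoxidizes it and Lss closes it into lanosterol. Sqle had 102 to 108 CPM in CD24- and 127 to 158 CPM in CD24+, with a log2 fold change of 0.41 (edgeR adjusted p = 0.00507), and Fdft1 had 0.32 (adjusted p = 0.032). Fdft1 was not called without CD24- replicate 1 (0.32, adjusted p = 0.0853), CD24- replicate 3 (0.28, 0.0681) or CD24+ replicate 3 (0.19, 0.181), nor with each distinct sequence counted once (0.21, 0.134). Lss, at 34.1 ± 1.44 and 39.8 ± 7.96 CPM, was not called (0.24, adjusted p = 0.179).

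Cyp51, which removes a methyl group from lanosterol, was higher. It had 60.7, 53.7 and 59.3 CPM in CD24- and 101, 82.9 and 115 CPM in CD24+, so the lowest CD24+ library lay above the highest CD24- library, with a log2 fold change of 0.78 (SE 0.12, edgeR adjusted p = 4.44e-04). Tm7sf2, a sterol reductase, had 3.47, 3.51 and 3.38 CPM in CD24- and 6.45, 3.84 and 7.34 CPM in CD24+, a log2 fold change of 0.75 (SE 0.27, adjusted p = 0.0413). CD24+ replicate 2 was close to the CD24- libraries, and Tm7sf2 was not called when any library but CD24+ replicate 2 was left out (adjusted p of 0.072 to 0.214) or with median coverage (0.12, limma adjusted p = 0.0842). Nsdhl, of the demethylation steps after Cyp51, had 0.43 (adjusted p = 0.0329). It was not called without CD24- replicate 1 (0.43, adjusted p = 0.0777), CD24- replicate 3 (0.34, 0.076) or CD24+ replicate 3 (0.26, 0.182), nor with median coverage (0.15, limma adjusted p = 0.106).

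Ebp, the sterol isomerase, was lower, with the least spread of the 32 genes relative to its mean. It had 46.95, 46.2 and 46.1 CPM in CD24- and 28.6, 29.2 and 28.4 CPM in CD24+, a log2 fold change of -0.69 (SE 0.09, edgeR adjusted p = 9.8e-05), and leaving out any library kept it between -0.71 and -0.68, while it was -0.44 with distinct sequences and -0.42 with median coverage. Hsd17b7, a ketosteroid reductase of the demethylation steps, was lower at -0.43 (adjusted p = 0.0155). It was not called without CD24- replicate 1 (-0.39, adjusted p = 0.067) or CD24+ replicate 2 (-0.38, 0.051), nor with each distinct sequence counted once (-0.26, 0.152) or the median-coverage estimate (-0.091, limma adjusted p = 0.108). Dhcr7, which completes the ring system of cholesterol, had 108 ± 5.32 and 101 ± 1.54 CPM and was not called (-0.10, adjusted p = 0.281).

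**Figure D3:**
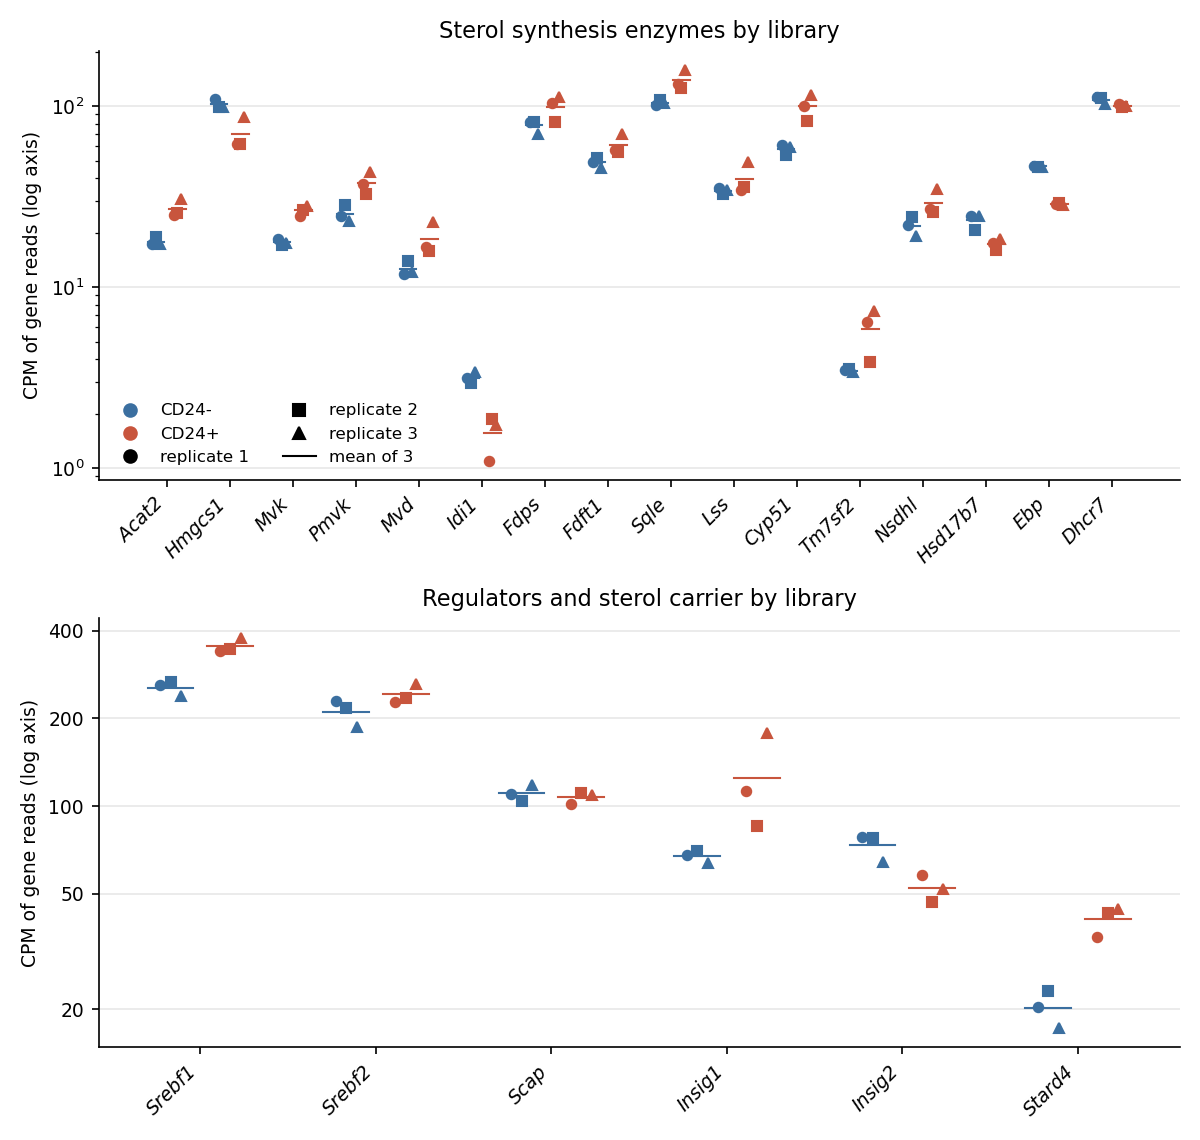
CPM of gene reads (y axis, log scale) in each library for the 16 sterol enzymes in pathway order (upper panel) and the 6 regulators and carriers (lower panel), with shapes for replicates, colours for groups and a line at each mean of 3. Hmgcs1, Idi1, Hsd17b7 and Ebp lie lower in CD24+ and most others lie higher. CD24+ replicate 3 (triangle) is often the highest point of its group, as for Insig1 at 178 CPM.

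The plates of a group did not move alike. CD24+ replicate 3 had the highest value of its group for 13 of the 16 sterol enzymes and for 24 of all 32 genes. CD24- replicate 3 had the lowest value of its group for 22 of the 32. As a median over the 16 sterol enzymes, the log2 level relative to the CD24- mean was 0.33, 0.17 and 0.56 in CD24+ replicates 1, 2 and 3. For the 10 fatty acid genes it was 0.25, 0.28 and 0.46. The sterol enzymes called fell from 14 to 8 (5 higher and 3 lower) without CD24- replicate 1 and to 9 (5 higher and 4 lower) without CD24+ replicate 3. The calls among all genes fell too, from 5130 of 11125 to 4069 of 11256 and to 4100 of 11194. The fatty acid genes called fell from 7 to 3 without CD24+ replicate 3, when no fatty acid gene was called lower.

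Set side by side, the branches differed in makeup. Their median log2 fold changes were 0.38 for sterol enzymes and 0.33 for fatty acid genes. With the median-coverage estimate they were 0.078 and 0.20, so their order depended on the processing. With each distinct sequence counted once they were 0.27 and 0.11, but that count saturates in abundant genes such as Scd2. The summed level of the 16 sterol enzymes was 724, 713 and 681 CPM in CD24- replicates 1, 2 and 3 and 777, 722 and 908 CPM in CD24+ replicates 1, 2 and 3, so CD24+ replicate 2 fell within the CD24- range and the means differed 1.14-fold. The 10 fatty acid genes summed to 3755, 3649 and 3528 CPM in CD24- and 3834, 4303 and 4711 CPM in CD24+, without overlap and with a 1.18-fold difference of means. Without Scd2, the most abundant gene, the other 9 summed to 1914, 1899 and 1871 CPM in CD24- and 1851, 2168 and 2284 CPM in CD24+, so CD24+ replicate 1 fell below every CD24- library. The sterol sum was 19.3%, 19.5% and 19.3% of the fatty acid sum in CD24- and 20.3%, 16.8% and 19.3% in CD24+. On annotated reads the CD24+ shares thus spread more widely and lay on both sides of the CD24- shares. All these sums leave out reads that match a gene but carry another annotation or none. Among these are 5500 reads of Idi1, which was lower in CD24+, 4452 of Fads2 and 17939 of Scd2. Where the sums and shares would lie with these reads was not tested. Within the fatty acid branch the sum of Fads1 and Fads2 went from 49.9 ± 14.5 to 272 ± 33.1 CPM (SD, n = 3 each), and that of Scd1 and Scd2 went from 2061 ± 178 to 2700 ± 294 CPM. The sum of Acly, Acaca and Fasn was 1141, 1127 and 1317 CPM in CD24- and 745, 1094 and 967 CPM in CD24+. These CD24+ values all lay below the CD24- values, and their mean was 0.783 of the CD24- mean. Most of this lay in Fasn, whose mean went from 727 to 514 CPM. Acly (287 to 262 CPM) and Acaca (182 to 159 CPM) were not called. No test was run on these sums, since the genes in them were grouped with their values known.

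**Figure D4:**
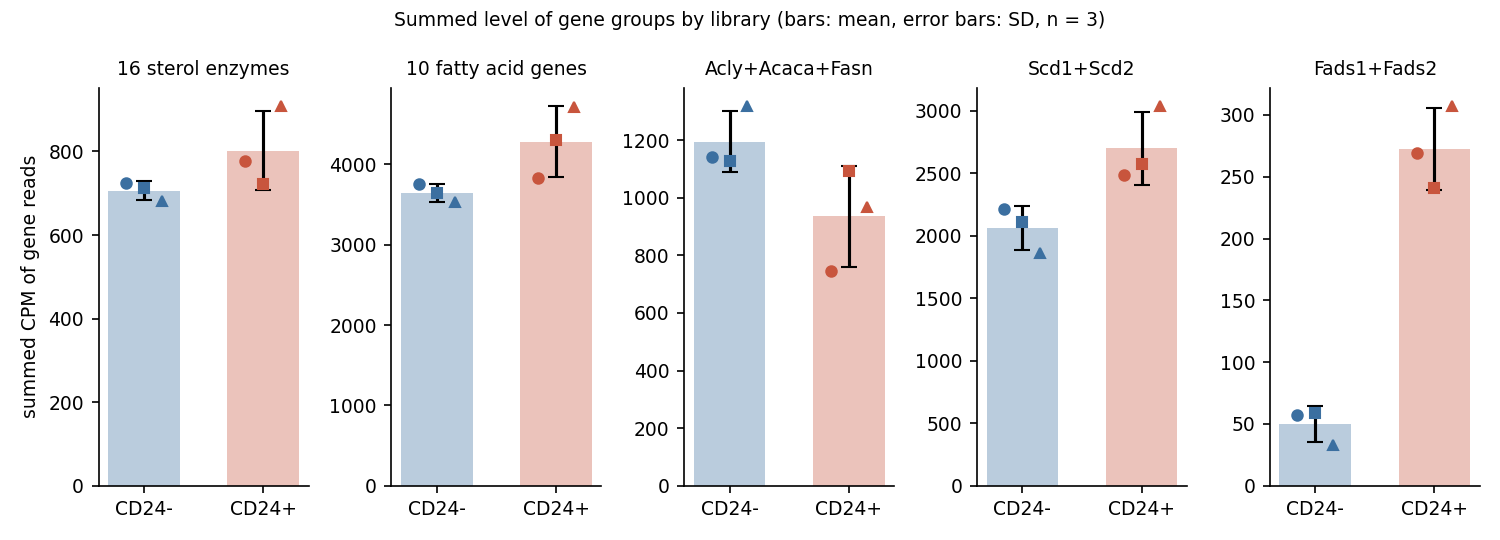
Summed CPM of gene reads (y axes from 0, a scale for each panel) in CD24- and CD24+ libraries for the sterol enzymes, the fatty acid genes and 3 subgroups of the latter, with bars at the mean, error bars of 1 SD over 3 libraries and a point for each library. On annotated reads the sterol sums overlap between the groups, while Fads1 plus Fads2 goes from 49.9 to 272 CPM and Acly plus Acaca plus Fasn from 1195 to 935 CPM.

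The regulators split in the same mixed way, with 3 of 6 higher, 1 lower and 2 not called, which is 66.7% called beside 46.1% of all genes. The number called was the same with any library left out. Stard4, a carrier that moves cholesterol between membranes, had 20.3, 23.1 and 17.3 CPM in CD24- and 35.4, 42.9 and 44.3 CPM in CD24+, all CD24+ libraries being higher. Its log2 fold change was 1.02 (SE 0.13, edgeR adjusted p = 1.37e-04). Insig1 and Insig2 encode the retention proteins and moved apart. Insig1, itself a known SREBP target, had 67.6, 70.0 and 63.8 CPM in CD24- and 112, 85.4 and 178 CPM in CD24+, a log2 fold change of 0.90 (SE 0.22, adjusted p = 0.00647) that was 0.54 without CD24+ replicate 3. Insig2 had 78.0, 77.4 and 64.2 CPM in CD24- and 57.9, 46.6 and 51.7 CPM in CD24+, without overlap, a log2 fold change of -0.50 (SE 0.11, adjusted p = 0.0041). Srebf2 (0.20, adjusted p = 0.118) and Scap (-0.04, 0.714) were not called.

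Srebf1 had 261, 266 and 238 CPM in CD24- replicates 1, 2 and 3 and 340, 346 and 379 CPM in CD24+ replicates 1, 2 and 3, without overlap, with a log2 fold change of 0.48 (SE 0.08, edgeR adjusted p = 9.38e-04). It was 0.26 and not called on distinct sequences (adjusted p = 0.059). The gene lies on the minus strand of chromosome 11 (GRCm38) and has several annotated transcript starts, of which the first exons of SREBP-1a and SREBP-1c were counted. A non-coding transcript that starts further upstream was not counted here. The upstream exon of the pair (60220453 to 60220604) begins the transcript of SREBP-1a, the stronger activator, and the downstream exon (60210336 to 60210465) that of SREBP-1c, the form known from liver and fat tissue. Reads lying wholly in the upstream exon numbered 34, 43 and 46 in CD24- and 33, 57 and 72 in CD24+. Reads in the downstream exon numbered 14, 14 and 11 in CD24- and 14, 42 and 63 in CD24+. Of the reads in this pair of exons, the upstream one held 70.8%, 75.4% and 80.7% of these reads in CD24- and 70.2%, 57.6% and 53.3% in CD24+, with 95% Clopper-Pearson intervals of 55.9% to 83.0% in the first library and 44.6% to 62.0% in the last. Intervals cover counting error only. The shares had means of 75.7% ± 4.94 and 60.4% ± 8.78 (SD, n = 3 each) and did not overlap. An exact two-sided permutation test gave p = 0.1, the smallest that 3 libraries against 3 allow. The nearest libraries were CD24- replicate 1, at 34 of 48 reads, and CD24+ replicate 1, at 33 of 47 reads. Their intervals of 55.9% to 83.0% and 55.1% to 82.7% nearly coincide, so the lack of overlap lies within counting error. The downstream exon had 1.36 ± 0.128 RPM in CD24- and 2.61 ± 0.608 in CD24+ (exact permutation p = 0.1), and the upstream exon 4.31 ± 0.793 and 4.02 ± 0.962 (exact permutation p = 0.7). The reads of these exons are few, and their shares are given as values.

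**Figure D5:**
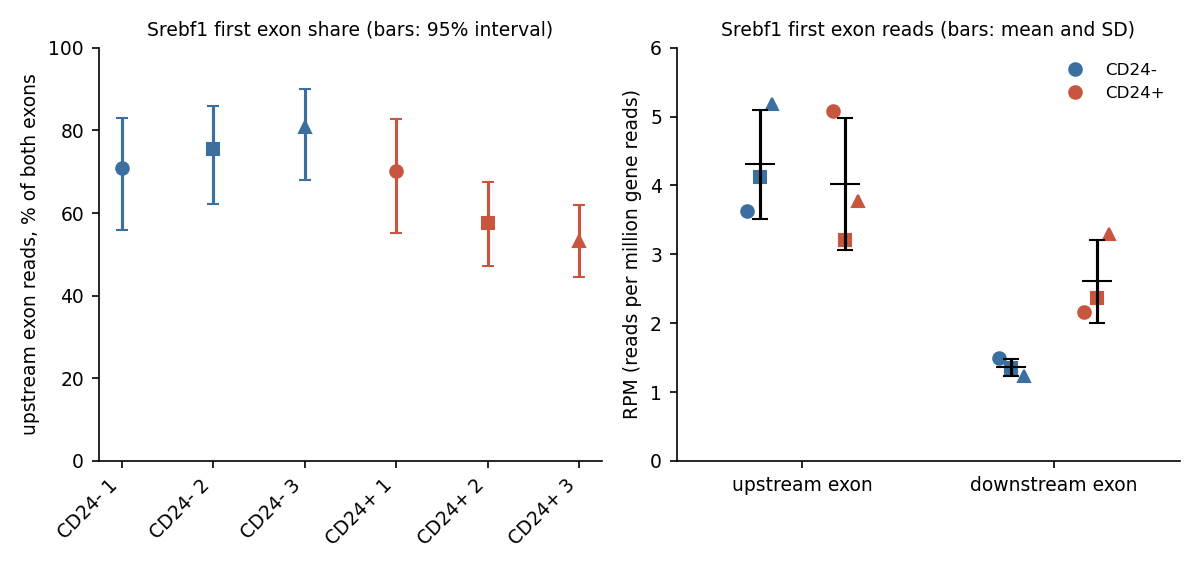
Left, reads in the upstream first exon of Srebf1 as a percentage of reads in both first exons in each library, with 95% Clopper-Pearson intervals; right, reads of each exon in RPM, with points for libraries and bars for mean and SD of 3. The share is 70.8% to 80.7% in CD24- and 53.3% to 70.2% in CD24+, and the downstream exon has a higher RPM in every CD24+ library.

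Promoters were read for what the genes share in sequence. RefSeq promoters (GRCm38.p6) of the 250 bases before a transcript start were at hand for 25 of the 32 genes, 33 promoters in all, and none was matched for Fdps, Fdft1, Sqle, Stard4, Scd1, Scd2 and Fads1. Those of Hmgcs1 and Ebp are printed because these genes ran against most of their pathway, and those of the Srebf1 first exons because their exons were counted apart. Capitals mark the letters CCAAT, the box bound by the factor NF-Y, on either strand (ATTGG when read on the other), and the letters TCACNCCAC, the core of a sterol response element.
Hmgcs1, chr13:119690101-119690350, plus strand: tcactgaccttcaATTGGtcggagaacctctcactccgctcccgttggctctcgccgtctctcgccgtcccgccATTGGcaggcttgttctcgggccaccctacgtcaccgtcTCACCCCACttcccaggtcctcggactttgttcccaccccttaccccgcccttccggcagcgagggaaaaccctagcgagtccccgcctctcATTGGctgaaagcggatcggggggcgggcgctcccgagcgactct
Ebp, chrX:8193513-8193762, minus strand: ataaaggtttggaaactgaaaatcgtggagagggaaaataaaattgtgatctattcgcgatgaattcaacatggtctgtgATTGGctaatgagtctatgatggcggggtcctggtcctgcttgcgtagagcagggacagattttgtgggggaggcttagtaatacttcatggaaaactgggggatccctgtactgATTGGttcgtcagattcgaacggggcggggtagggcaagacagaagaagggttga
Srebf1 upstream exon, chr11:60220628-60220877, minus strand: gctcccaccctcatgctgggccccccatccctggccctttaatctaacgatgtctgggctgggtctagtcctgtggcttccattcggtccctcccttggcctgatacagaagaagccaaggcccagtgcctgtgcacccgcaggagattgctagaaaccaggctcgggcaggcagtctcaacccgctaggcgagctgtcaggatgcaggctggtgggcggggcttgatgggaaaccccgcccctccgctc
Srebf1 downstream exon, chr11:60210472-60210721, minus strand: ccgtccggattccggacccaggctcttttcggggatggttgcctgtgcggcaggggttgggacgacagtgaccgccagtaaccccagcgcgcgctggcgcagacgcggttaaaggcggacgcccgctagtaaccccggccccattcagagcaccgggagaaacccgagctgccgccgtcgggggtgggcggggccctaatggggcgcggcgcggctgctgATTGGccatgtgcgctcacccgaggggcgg
CCAAT on either strand stood in 60.6% of the 33 promoters and in 33.8% of all 32851 promoters of the same length, and 19 of 25 genes had it in at least 1 promoter. Counted by gene in the same way, it was present for 12 of 13 sterol enzymes, 4 of 5 regulators and 3 of 7 fatty acid genes. The 33.8% is a share of promoters and is not the background for these counts of genes. TCACNCCAC was found for Hmgcs1 alone of the 25 genes, and in 1.05% of all promoters. The E-box letters CANNTG, which may overlap the other motifs, stood in 63.6% of the 33 and in 66.2% of all. No match means only that these letters are absent from this window.

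Per length, the levels ranked differently from the changes. Counting only reads that match 1 gene, per 1000 such 47-nt positions of the gene and per 1000000 such reads, Scd2 stood highest at 383 ± 21.9 in CD24- and 463 ± 54.5 in CD24+ (SD, n = 3 each). In CD24- cells Scd1 (74.2 ± 21.9), Fasn (74.0 ± 9.98), Acly (65.0 ± 2.55), Srebf1 (58.3 ± 4.73) and Idi1 (53.4 ± 2.74) followed, and below Scd2 each gene in this order differed from the next by less than the sum of their SDs. The positions include those over exon junctions, where exact matching on the genome gives no reads. Genes with many exons are thus understated, and the order between genes is approximate. On this scale Fads1 went from 11.3 ± 2.76 to 54.3 ± 6.89 and Fads2 from 7.95 ± 2.95 to 56.5 ± 7.18. The Fads pair thus stood far below Fasn in CD24- cells and, on this scale, at a level like that of Fasn (51.2 ± 13.2) in CD24+ cells. Idi1, low on annotated reads, went from 53.4 to 28.1 ± 2.66 on this scale.

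Of 37 other genes of the pathways, 32 were tested, with 8 higher, 7 lower and 17 not called, which is 46.9% called and close to the 46.1% of all genes. Of 4 other sterol synthesis genes, 2 were higher and none lower. Msmo1, which acts beside Cyp51, had 0.71 and Ggps1, which makes geranylgeranyl diphosphate, had 0.54. Of the proteases that release SREBP, Mbtps2 was lower at -0.56 and Mbtps1 was not called (0.19, edgeR adjusted p = 0.0582). Among 18 further fatty acid genes tested, 3 were higher and 3 lower, with Acsl3 at 0.74 and Me1, a source of NADPH, at 0.63 among the higher and Acsl1 at -0.54, Elovl1 at -0.32 and Acsl5 at -0.24 as the lower. Elovl4 was also called higher, at 0 to 0.190 CPM in CD24- and 1.31 to 1.57 CPM in CD24+.

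The 8 genes of sterol export, storage and sensing held 6 calls, 3 in each direction, where 46.1% of all genes were called. Abca1, which exports cholesterol, had 17.2, 15.7 and 12.7 CPM in CD24- and 50.1, 77.7 and 63.2 CPM in CD24+, a log2 fold change of 2.07 (SE 0.17, edgeR adjusted p = 5.26e-06). Mylip, whose product marks lipoprotein receptors for degradation, had 10.6, 10.9 and 4.62 CPM in CD24- and 22.0, 20.6 and 25.4 CPM in CD24+, a log2 fold change of 1.37 (SE 0.25, adjusted p = 0.00122). Soat1, which esterifies cholesterol for storage, was lower, with 113, 112 and 105 CPM in CD24- and 38.7, 30.7 and 34.5 CPM in CD24+, a log2 fold change of -1.68 (SE 0.10, adjusted p = 5.95e-07). Npc2, which carries cholesterol out of lysosomes, was lower too, with 474, 462 and 416 CPM in CD24- and 276, 227 and 254.7 CPM in CD24+, a log2 fold change of -0.84 (SE 0.09, adjusted p = 5.1e-05). These 4 did not overlap between the groups, as 57.3% of all genes did not, and were named for their large changes. Abca1, Mylip and Abcg1, also higher at 0.73, are known targets of the sterol-sensing LXR receptors, whose own genes Nr1h2 (-0.24, adjusted p = 0.0577) and Nr1h3 (0.45, 0.308) were not called.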

How the data were processed

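The authors deposited, for each library, counts of every distinct 47-nt read, without normalization and without pooling of libraries. Reads had been trimmed, collapsed and placed by exact match on the mouse genome (mm9 per the labels), each with 1 location and 1 annotation chosen by the authors' hierarchy. Neither the aligner nor the annotation source is stated in the labels or the study's methods. Exact matching drops reads over exon junctions and over FVB/N variants, and the library kit keeps no strand.

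Counts were summed per annotation under the symbol or an older synonym, and reads of repeats, small RNA or no annotation were left out. Genes passing filterByExpr were tested with edgeR 4.0.16 by its quasi-likelihood F test after TMM scaling, in R 4.3.3, with p-values adjusted by Benjamini-Hochberg and called below 0.05, and the SE is the fold change over the root of F. Reads were also matched to GENCODE M21 transcripts (GRCm38), whose coordinates are not mixed with mm9. Libraries of a group differed beyond sampling noise (1.75 or more for chi-square over its degrees of freedom).

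The genes, the lists and the tests were chosen with earlier results of these data known. Values of every library are given for the 4 largest called changes of each group of genes and of the other pathway genes (mean of at least 5 CPM), and Hmgcs1, Fasn and the gene sums were added after their values had been seen. Alternatives were DESeq2 1.42.0, other scalings and filters, each distinct sequence counted once, reads matching 1 gene, a median-coverage estimate tested with limma 3.58.1, the replicate number as a block and each library left out. A gene of the pathway list is not reported here and is left out of its counts. The scripts were tested on simulated data.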

Additional observations from a re-analysis of the deposited data

How the results depend on the processing

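Of 120 summary values (counts of calls, medians of the groups of genes and the fold change of Cd24a) under the alternatives, 112 stayed close to the reported ones. For counts this means a total called within 1.5 times the reported one, whatever its split into higher and lower. Without CD24- replicate 3, 6 sterol enzymes were higher and 4 lower, and 5 fatty acid genes were higher and 0 lower. For medians it means a value within the spread. Cd24a kept its direction and call, at 1.30 with median coverage and 2.47 with distinct sequences against 2.91. Of 477 fold changes of the 32 genes 424 kept direction and call, 48 lost the call and 5 changed sign. With each distinct sequence counted once, a count that saturates in abundant genes, 4 of 10 fatty acid genes were called, beside 3695 of 11078 genes, and their median log2 fold change was 0.11. With the median-coverage estimate, which adds 10 to each value and so shrinks the folds of genes with low coverage, 3049 of 9020 genes were called, 8 of 14 sterol enzymes tested were called and the sterol median was 0.078. There Fads2 was 1.59, Fads1 1.36, Insig1 0.56, Pmvk 0.37, Stard4 0.34, Cyp51 0.30, Mvk 0.23, Mvd 0.19, Insig2 -0.29 and Ebp -0.42, all still called. The sign changed for Acat2 (-0.031 with median coverage). It changed for Elovl6 (0.0016 with distinct sequences and 0.069 without CD24+ replicate 1, in a range of -0.16 to 0.069 with a library left out). For Scap it was 0.012 without CD24- replicate 3, in a range of -0.086 to 0.012 with a library left out. The sign of Scd2 changed too (-0.014 with distinct sequences), but that count saturates for Scd2 and cannot decide its direction. With distinct sequences Srebf1 (0.26, edgeR adjusted p = 0.059), Scd1 (0.42, 0.0756), Elovl5 (0.23, 0.066), Hsd17b7 (-0.26, 0.152), Fdft1 (0.21, 0.134) and Fdps (0.12, 0.477) lost their calls. With median coverage Tm7sf2 (0.12, limma adjusted p = 0.0842), Nsdhl (0.15, 0.106), Hsd17b7 (-0.091, 0.108), Acss2 (0.14, 0.198) and Scd2 (0.20, 0.265) did, and Tm7sf2 did with DESeq2 (0.74, adjusted p = 0.0525). Fdps also lost its call without TMM factors (0.32, 0.0574) and with DESeq2 size factors (0.33, 0.0516). The cause was not tested. Leaving out 1 library gave 8 to 13 sterol enzymes and 3 to 7 fatty acid genes called, the latter with 3 without CD24+ replicate 3, and 4069 to 5358 genes in all. The filter of at least 1 CPM in 3 libraries kept the same 11125 genes, so its values repeat the reported ones and add no check to the counts above.

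With the replicate number as a block, 4493 genes, 10 sterol enzymes, 6 fatty acid genes and 4 regulators were called, and Fdps, Fdft1, Tm7sf2, Nsdhl and Scd2 were not (adjusted p of 0.0502 to 0.0633). Deviations of same-numbered plates correlated at 0.013, -0.27 and -0.32. Whether plates of the same number were handled together is not stated, and these correlations cannot settle it. The Srebf1 first exons rest on 47 to 135 reads a library.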
